A study of Homo sapiens with 15 samples.

Results

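Notch ligands, receptors and target genes were followed through the laminin protocol that turns human embryonic stem cells into cardiac cells. The members were 10 genes of 48777 in the deposited tables, picked by gene symbol: the ligands JAG1, DLL1 and DLL4, the receptors NOTCH1, NOTCH2 and NOTCH3, and the target genes HES1, HEY1, HEY2 and HEYL. H1, an established human embryonic stem cell line, was sampled by bulk RNA-seq on days 0, 4, 9, 11 and 20. Each day had 3 biological replicates, which gave 15 libraries. The day 20 libraries labelled plate 2 and plate 2_3 share a plate number, and whether they were separate cultures is not stated. All groups shared H1 as the only line and a coating of the laminins LN-521 and LN-221, although the deposited sample table lists LN-521 alone for day 0. Day 0 cells were undifferentiated stem cells in Nutristem medium, and day 4 was the day of confluence. From day 4 the cells received CHIR99021, an activator of WNT signalling, for 1 day in RPMI 1640 with B27 without insulin, and from day 7 they received IWP2, an inhibitor of WNT secretion. Day 11 cells are the committed cardiac progenitors (CCPs) of the study, and day 20 was the last day sampled. The libraries labelled day 9 are listed under day 7 in the study's methods, and the label is used throughout.

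Notch signalling passes between touching cells. A ligand on one cell (JAG1, DLL1 or DLL4) binds a receptor on its neighbour, proteases then release the receptor's intracellular domain, and this domain enters the nucleus and joins the DNA-binding protein RBPJ to switch on target genes. HES1, HEY1, HEY2 and HEYL encode basic helix-loop-helix repressors that are classic targets of this route. In the developing heart, HEY1 is known from atrial and HEY2 from ventricular muscle, while DLL4 and JAG1 are known from endocardium and vessels.

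RBPJ recognises the letters GTGGGAA, and the promoters of the targets HES1, HEY2 and HEYL are shown because they hold this motif. The 250 bases before the transcription start were read from RefSeq (GRCh38.p14) and searched on both strands. Of the 10 members, 8 had an entry in the table used. The target HEY1 and the ligand DLL1 had none and were not searched. The motif was found in HES1, HEY2 and HEYL but not in NOTCH1, NOTCH2, NOTCH3, JAG1 or DLL4. Of all 35116 promoters of the same length, 5.43% held it. In the lines below, printed 5′ to 3′ on the strand of the gene, capitals mark GTGGGAA or its reverse complement TTCCCAC, and also the shorter core TGGGAA or TTCCCA, which overlaps the longer motif and was found in 20.8% of all promoters. A match is a match of letters only, and binding was not measured.
HES1: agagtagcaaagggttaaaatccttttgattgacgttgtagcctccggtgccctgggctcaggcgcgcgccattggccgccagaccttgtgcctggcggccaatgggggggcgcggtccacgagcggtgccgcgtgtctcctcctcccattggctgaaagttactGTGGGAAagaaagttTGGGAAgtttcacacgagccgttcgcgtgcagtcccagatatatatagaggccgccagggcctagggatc
HEY2: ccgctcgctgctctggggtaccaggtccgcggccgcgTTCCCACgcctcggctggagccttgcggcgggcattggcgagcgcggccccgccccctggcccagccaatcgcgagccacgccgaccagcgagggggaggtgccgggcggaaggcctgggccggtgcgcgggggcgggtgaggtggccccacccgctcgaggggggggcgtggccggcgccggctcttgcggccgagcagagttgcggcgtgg
HEYL: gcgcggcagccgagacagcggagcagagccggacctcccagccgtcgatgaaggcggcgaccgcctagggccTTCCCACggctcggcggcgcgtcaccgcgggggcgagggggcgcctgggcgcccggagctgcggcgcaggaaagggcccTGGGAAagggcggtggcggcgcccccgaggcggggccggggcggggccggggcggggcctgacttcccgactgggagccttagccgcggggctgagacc
The HES1 stretch lies at chr3:194135898-194136147 on the plus strand, just before the annotated start of the gene, and its GTGGGAA begins at position -85, with a second core at position -70. The HEY2 stretch lies at chr6:125749382-125749631 on the plus strand, with the motif on the opposite strand at position -213. GENCODE v44 begins HEY2 further upstream, at 125747664, so that this stretch lies in an intron of the longest HEY2 transcript there. The HEYL stretch lies at chr1:39639644-39639893 on the minus strand, with the motif on the opposite strand at position -178 and a second core at position -99.

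The number of reads assigned to genes ranged from 11990302 to 33469703. Levels are given as TPM, a measure scaled for gene length and library size that the authors computed from the counts, and comparisons come from edgeR's quasi-likelihood test on the counts of the 6 libraries of the days compared, two-sided, with p-values adjusted over every gene in the fit and called under 0.05. The day 20 library from plate 2_3 had an RNA integrity number of 6.1, against 8.8 or more in the 14 others, and carried reads on nearly every gene, with a median of 10.95 reads per kilobase on 174 genes that were silent on the earlier days. The calls of day 20 are therefore also given without it. A single gene without a symbol, only 57 bases long, took 20.0% of the TPM in the third day 0 library and 17.0% in the day 9 library from plate 2, which lowers the TPM of every other gene there but not the counts. The 8 stem cell markers, such as POU5F1 and NANOG, summed to between 5358 and 8477 TPM on day 0 and between 83.7 and 118 TPM on day 20, and the 10 cardiomyocyte markers, such as TNNT2 and MYH6, had a median sum of 28.1 TPM on day 0, 7306 on day 11 and 26300 on day 20. In bulk RNA, fewer cells that express a gene and less RNA per cell cannot be told apart.

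JAG1 was the most abundant of the 3 ligands in every library. Its level was 131, 42.7 and 94.4 TPM in the day 0 libraries and 144, 153 and 146 TPM on day 4. On day 9 JAG1 stood at 210 TPM in the plate 2 library, 67.3 in the plate 6_1 library and 713 in the library without a plate number. The day 11 libraries from plates 2, 5 and 6 held 264, 540 and 76.0 TPM, and those of day 20 from plates 2, 2_3 and 6_1 held 91.7, 120 and 53.7 TPM. The replicates spread 10.6-fold on day 9 and 7.10-fold on day 11, and the libraries from plate 6 were the lowest of days 9, 11 and 20. Ranked by mean, the days ran 9, 11, 4, 0 and 20, and only days 4 and 0 did not overlap among neighbours in this order. The log2 difference of day 9 from day 4 was 1.21 ± 0.72 (SE, n = 3 per day, edgeR adjusted p = 0.199). It was -0.02 without the library that has no plate number, and 1.72 without that from plate 6_1, where it passed the test (edgeR adjusted p = 0.00859).

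From day 4 to day 20 JAG1 fell, with a log2 fold change of -0.99 ± 0.27 (edgeR adjusted p = 0.0283). The 3 day 20 values all lay below the 3 day 4 values. This call held in 4 of 13 alternative settings, and it was lost with each day 4 library left out. Without the plate 2_3 library the log2 fold change was -1.09 (edgeR adjusted p = 0.0106). A gene on the opposite strand, ENSG00000270792, overlaps 306 exon bases of JAG1, and whether reads were counted by strand is not given in the sources used here.

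DLL1, a ligand known from somite and neural patterning, stood at 31.0, 5.85 and 20.9 TPM on day 0 and at 37.2, 26.7 and 37.5 TPM on day 4. The day 9 libraries held 24.2, 25.5 and 38.3 TPM and those of day 11 held 21.9, 22.1 and 19.4 TPM. On day 20 it was at 15.8, 8.85 and 5.01 TPM in the libraries from plates 2, 2_3 and 6_1, below all libraries of days 4, 9 and 11. DLL1 fell from day 4 to day 20 (log2 fold change -1.96 ± 0.45, edgeR adjusted p = 0.0156), and by 1.76 on the log2 scale without the plate 2_3 library (edgeR adjusted p = 0.0239). The call was lost without the day 4 library from plate 1 (adjusted p = 0.0663) or from plate 5 (adjusted p = 0.0623). No step between neighbouring days passed the test, the nearest being day 20 against day 11 with -1.20 ± 0.44 (edgeR adjusted p = 0.217). FAM120B, on the opposite strand, overlaps 370 exon bases of DLL1.

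DLL4, with HEY1 the least abundant member before day 9, was at 0.819, 0.329 and 0.596 TPM on day 0, from 11 to 27 reads per library. It stood at 0.762, 1.13 and 1.26 TPM on day 4 and at 1.45, 1.73 and 1.25 TPM on day 9. On day 11 it was at 1.36 TPM in the plate 2 library, 4.30 in that from plate 5 and 1.04 in that from plate 6. On day 20 it was at 5.08, 13.4 and 1.89 TPM in the libraries from plates 2, 2_3 and 6_1. Ranked by mean, the days ran 20, 11, 9, 4 and 0, which is the reverse of their order in time, and every pair of neighbours overlapped. From day 4 to day 20 DLL4 rose by 2.34 ± 0.62 on the log2 scale (edgeR adjusted p = 0.0269). The lowest day 20 library lay above the highest day 4 library.

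The plate 2_3 library weighed on this value. At the read density of the silent genes, a gene of the length of DLL4 would have 52.1 reads there, which is 20.9% of its 249, and the level less these reads was 10.6 TPM. Without the library, the log2 fold change of DLL4 was 1.68 and still passed the test (edgeR adjusted p = 0.0229). It did not pass with any single day 4 library left out (adjusted p from 0.0854 to 0.111) or with limma on log2 TPM.

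Among the endothelial markers, CDH5, the cadherin of endothelial junctions, was also highest in the day 11 library from plate 5, at 52.5 TPM against 9.65 and 1.44 in the libraries from plates 2 and 6. PECAM1 was at 12.7 TPM in that library against 1.16 and 0.618. The 10 endothelial markers summed to 372 TPM there and to 206 and 158 TPM in the other two, with EGFL7, which was at 83.3 to 114 TPM on day 0, holding 144, 82.2 and 67.2 TPM of these sums. On day 20 the sums were 128, 106 and 227 TPM in the libraries from plates 2, 2_3 and 6_1, where DLL4 was at 5.08, 13.4 and 1.89 TPM. In the same order CDH5 was at 8.04, 5.89 and 3.35 TPM, PECAM1 at 2.70, 4.17 and 2.26, and ESAM at 6.62, 6.11 and 2.845. The plate 2_3 values of these markers still include reads at the density of the silent genes. Taking such reads off lowered DLL4 there from 13.4 to 10.6 TPM. The rank of these low markers in that library is therefore uncertain. EGFL7 held 77.6, 40.0 and 66.6 TPM of the sums in the libraries from plates 2, 2_3 and 6_1. CDH5, PECAM1, ESAM and EGFL7 were thus all lower in the plate 6_1 library than in that from plate 2. The higher sum of the plate 6_1 library came from the other markers of the list, which ran against DLL4 there. The part of endothelial cells in the level of DLL4 was not tested. EMCN, SOX17 or ESAM had 0 reads in each library of days 0 and 4, and no marker of the list was at 0 on day 11 or 20.

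**Figure D1:**
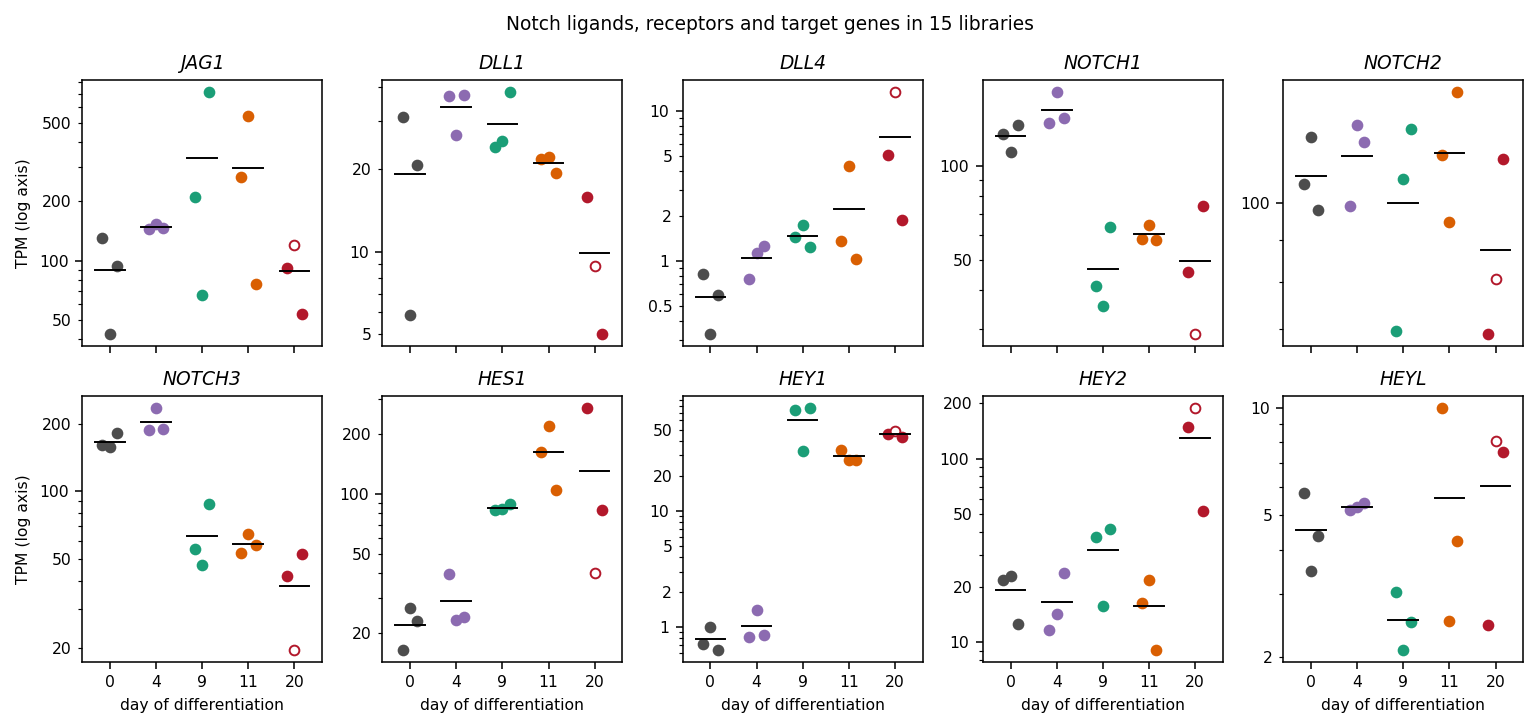
TPM of each gene (log axis) by day in the 15 libraries, 3 points per day, with black lines for the day means and an open circle for the day 20 library from plate 2_3. HEY1 lies near 1 TPM on days 0 and 4 and between 27.2 and 76.1 TPM afterwards, NOTCH1 and NOTCH3 lie lower from day 9 on, and JAG1 spreads from 67.3 to 713 TPM within day 9.

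The receptors NOTCH1 and NOTCH3 fell together between days 4 and 9 while NOTCH2 did not pass the test. NOTCH1 stood at 127, 111 and 135 TPM on day 0 and at 137, 172 and 143 TPM on day 4. On day 9 it was at 41.4, 35.7 and 63.7 TPM, on day 11 at 58.6, 64.9 and 57.8 TPM, and on day 20 at 45.9, 29.1 and 74.6 TPM. Every library of days 9, 11 and 20 lay below every library of days 0 and 4. The log2 fold change of day 9 against day 4 was -1.65 ± 0.24 (edgeR adjusted p = 0.000939), which is 3.14-fold lower, and the call held in all 13 alternatives. Day 20 was 3.33-fold lower than day 4 (log2 fold change -1.73 ± 0.45, edgeR adjusted p = 0.0251), a call that was lost with any day 4 library or the day 20 library from plate 2 left out and without a filter on low counts. Without the plate 2_3 library the log2 fold change was -1.39 (edgeR adjusted p = 0.00498).

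NOTCH3, known as the receptor of vascular smooth muscle, was the most abundant receptor in the stem cells. It stood at 160, 157 and 181 TPM on day 0 and at 187, 233 and 189 TPM on day 4. It was at 55.1, 46.7 and 87.6 TPM on day 9, at 53.3, 64.6 and 57.4 TPM on day 11, and at 42.0, 19.7 and 52.4 TPM on day 20. No library of days 0 and 4 was below 157 TPM, and none of the later days was above 87.6 TPM. NOTCH3 fell by 1.65 ± 0.26 on the log2 scale from day 4 to day 9 (edgeR adjusted p = 0.00130) and by 2.55 ± 0.48 from day 4 to day 20 (edgeR adjusted p = 0.00773), and both calls held in all 13 alternatives. Without the plate 2_3 library the latter was -2.17 (edgeR adjusted p = 0.000431). For both NOTCH1 and NOTCH3 the day 4 libraries lay just above those of day 0, but once the 57-base gene was left out of the TPM the third day 0 library reached 169 TPM for NOTCH1 and 226 TPM for NOTCH3, and the days overlapped.

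NOTCH2 lay between 98.1 and 121 TPM on day 0 and between 99.3 and 125 TPM on day 4. It lay between 69.7 and 123 TPM on day 9, between 94.7 and 137 TPM on day 11, and between 69.1 and 113 TPM on day 20. All 5 days overlapped. Its log2 difference was 0.01 ± 0.15 for day 4 against day 0, -0.18 ± 0.20 for day 9 against day 4, 0.16 ± 0.24 for day 11 against day 9, -0.51 ± 0.37 for day 20 against day 11 and -0.57 ± 0.32 for day 20 against day 4, and none passed the test (edgeR adjusted p from 0.223 to 0.992). Without the day 20 library from plate 6_1, the last of these was -0.95 and passed (edgeR adjusted p = 0.0441). NOTCH2NLA, a near copy of the first exons of NOTCH2, is a row of its own in the tables, so that reads could be split between them and the level of NOTCH2 is uncertain.

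The make-up of the receptor RNA therefore differed between the stem cells and the later days. NOTCH3 exceeded NOTCH2 in all 6 libraries of days 0 and 4, and NOTCH2 exceeded both others in all 9 libraries of days 9, 11 and 20. The share of NOTCH2 in the summed receptor TPM was 24.4% ± 1.70 (SD, n = 3) on day 4, 47.8% ± 7.71 on day 9, 49.0% ± 6.16 on day 11 and 51.2% ± 9.77 on day 20. NOTCH3 exceeded NOTCH1 in all 9 libraries of days 0, 4 and 9 and lay below it in all 6 of days 11 and 20, although on day 11 its ratio to NOTCH1 was between 0.909 and 0.995. The summed TPM of the 3 receptors was 468 ± 55.4 on day 4 and 210 ± 57.1 on day 9.

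**Figure D2:**
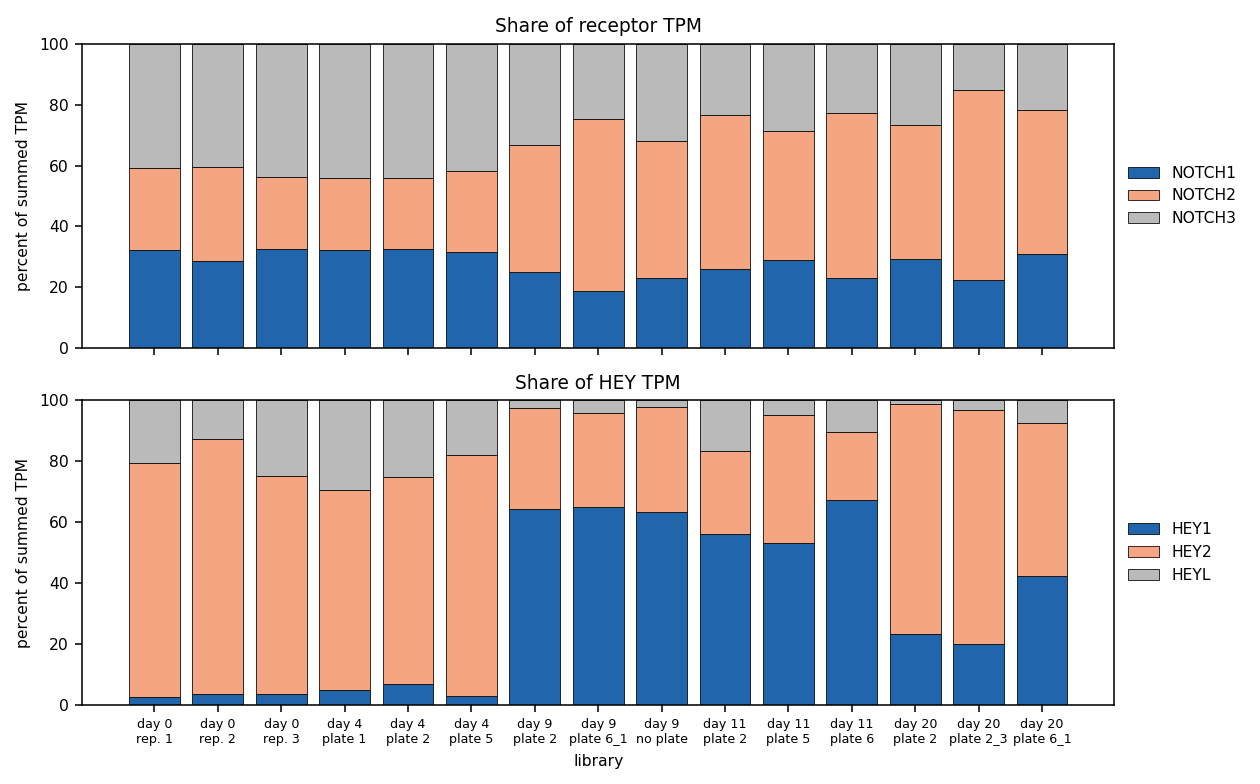
Share of each gene in the summed TPM of the 3 receptors (top) and of the 3 HEY genes (bottom), as percent, for each of the 15 libraries. NOTCH2 takes between 41.9% and 62.3% of the receptor TPM from day 9 on, and the leading HEY gene is HEY2 on days 0, 4 and 20 and HEY1 on days 9 and 11.

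HES1, a target of Notch that other pathways also induce, rose between days 4 and 9. It stood at 16.5, 26.6 and 23.1 TPM on day 0 and at 39.5, 23.3 and 24.1 TPM on day 4. On day 9 the libraries lay close together, at 82.6, 84.0 and 89.3 TPM, above every library of days 0 and 4. The log2 fold change was 1.57 ± 0.21 (edgeR adjusted p = 0.000558), or 2.98-fold, and it was past the threshold in 12 of 13 alternatives, the exception being all 15 libraries in one fit (adjusted p = 0.0628).

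On day 11 HES1 was at 163, 220 and 104 TPM in the libraries from plates 2, 5 and 6, all above day 9, but the log2 difference of 0.86 ± 0.25 did not pass the test (edgeR adjusted p = 0.125), although it did without the day 11 library from plate 6, where it was 1.09 (edgeR adjusted p = 0.0469), and without a filter on low counts (adjusted p = 0.0212). On day 20 it was at 268 TPM in the plate 2 library, 39.9 in that from plate 2_3 and 83.3 in that from plate 6_1. The highest day 20 library was 6.72-fold above the lowest, and the lowest value came from the library of low RNA integrity. In that library the 10 endoderm and epithelial markers summed to 1250 TPM, against 18850 and 21510 TPM in those from plates 2 and 6_1, and the part of either in the level of HES1 was not tested. Day 20 against day 4 gave 2.05 ± 0.73 (edgeR adjusted p = 0.0717), and 2.53 without the plate 2_3 library, where it passed the test (edgeR adjusted p = 0.00727). It also passed with DESeq2 (adjusted p = 0.0133) and with all 15 libraries in one fit (adjusted p = 0.0104).

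HEY1 showed the largest change of the 10 members. Its level in stem cells rested on few reads, at 0.714, 1.00 and 0.638 TPM on day 0 and 0.822, 1.40 and 0.853 TPM on day 4, from 8 to 27 reads. On day 9 it was at 73.5, 33.0 and 76.1 TPM, on day 11 at 33.3, 27.6 and 27.2 TPM, and on day 20 at 45.8, 49.1 and 43.6 TPM. Every library from day 9 on lay 19.4-fold or more above every earlier library. The log2 fold change from day 4 to day 9 was 5.95 ± 0.46 (edgeR adjusted p = 5.28e-05), or 61.7-fold, and that from day 4 to day 20 was 5.28 ± 0.32 (edgeR adjusted p = 0.000279), or 38.9-fold. Both calls held in all 13 alternatives, and without the plate 2_3 library the latter was 5.38.

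After day 9 the changes of HEY1 were smaller. The day 11 libraries lay below those from plate 2 and without a plate number on day 9, and around that from plate 6_1, with a log2 difference of -1.13 ± 0.34 (edgeR adjusted p = 0.145), and of -1.46 without the plate 6_1 library, where it passed (edgeR adjusted p = 0.0144). The day 20 libraries lay above all day 11 libraries, with a log2 difference of 0.52 ± 0.23 (edgeR adjusted p = 0.312). Neither passed the test with all libraries in.

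HEY2 stood at 21.8, 22.9 and 12.6 TPM on day 0 and at 11.6, 14.2 and 23.8 TPM on day 4. On day 9 it was at 37.6 TPM in the plate 2 library, 15.8 in that from plate 6_1 and 41.6 in that without a plate number. On day 11 it was at 16.3, 21.8 and 9.09 TPM in the libraries from plates 2, 5 and 6. On day 20 it reached 150, 188 and 51.9 TPM in the libraries from plates 2, 2_3 and 6_1, each above every library of the 4 earlier days. The libraries from plate 6 were again the lowest of days 9, 11 and 20. Ranked by mean, the days ran 20, 9, 0, 4 and 11, and all neighbours after day 20 overlapped.

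HEY2 rose by 2.87 ± 0.48 on the log2 scale from day 11 to day 20 (edgeR adjusted p = 0.0356), or 7.29-fold, and by 2.71 ± 0.47 from day 4 to day 20 (edgeR adjusted p = 0.00559). The first step was between 2.58 and 3.18 with 1 library left out, but the call was lost in 5 of these 6 fits, among them that without the plate 2_3 library (2.69, adjusted p = 0.0582) and that without the day 11 library from plate 2, which gave the highest adjusted p of 0.203. It was also lost with the plate (adjusted p = 0.0682) or the lane (adjusted p = 0.0788) as a block. With the plate as a block, the day 11 library from plate 5 had no same-plate partner and added nothing to the difference. The rise from day 4 held in all 13 alternatives, and without the plate 2_3 library it was 2.55 (edgeR adjusted p = 0.00627). Day 9 against day 4 gave 0.99 ± 0.42 and did not pass the test (edgeR adjusted p = 0.0881), although it passed with DESeq2 (adjusted p = 0.0301) and without the day 9 library from plate 6_1, where it was 1.36 (edgeR adjusted p = 0.00328).

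HEY2 was lowest on day 20 in the plate 6_1 library, where the 10 cardiomyocyte markers summed to 6556 TPM, against 26300 and 26690 TPM in the libraries from plates 2 and 2_3. That library also had the highest sum of the 10 mural and mesenchymal markers of the 3, at 21910 TPM against 2744 and 1491. The same cardiomyocyte markers summed to 23580 TPM in the day 11 library from plate 5, where HEY2 was at 21.8 TPM. HEY1 did not follow these sums on day 20, with 43.6 TPM in the plate 6_1 library and 45.8 and 49.1 in the others. The part of the share of cardiomyocytes in the level of HEY2 was not tested.

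**Figure D3:**
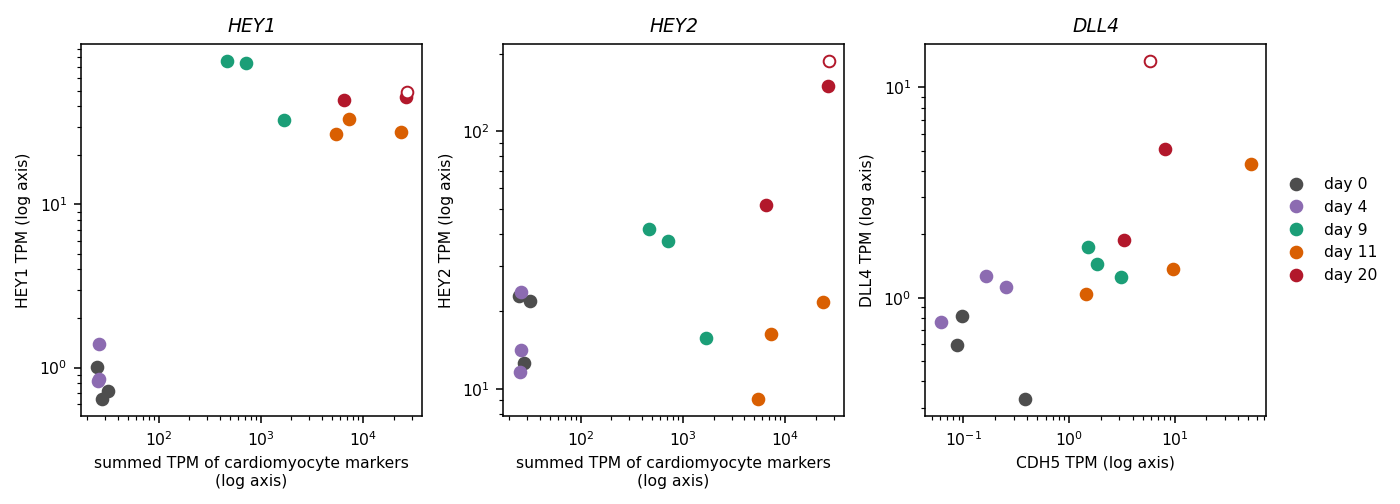
HEY1 and HEY2 TPM against the summed TPM of 10 cardiomyocyte markers, and DLL4 TPM against that of CDH5, with log axes, 1 point per library and an open circle for the day 20 library from plate 2_3. HEY1 is at 33.0 to 76.1 TPM on day 9, where the marker sums are 463 to 1704 TPM, and HEY2 is above 50 TPM in the day 20 libraries alone. CDH5 is 1 of 10 endothelial markers, and their sum ranked the day 20 libraries differently.

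HEYL, the least abundant of the HEY genes from day 9 on, stood at 5.79, 3.48 and 4.36 TPM on day 0 and at 5.18, 5.27 and 5.40 TPM on day 4. It was at 3.04, 2.10 and 2.51 TPM on day 9, at 9.96, 2.52 and 4.23 TPM on day 11, and at 2.46, 8.08 and 7.54 TPM on day 20. The day 9 libraries all lay below those of day 4, and days 11 and 20 spanned both. HEYL fell by 1.02 ± 0.23 on the log2 scale from day 4 to day 9 (edgeR adjusted p = 0.00604), opposite in direction to HES1 and HEY1. The call was lost with all 15 libraries in one fit (adjusted p = 0.112) and held in the other 12 alternatives. Days 0 and 9 did not overlap as deposited, but they did once the 57-base gene was left out, with 3.66 TPM in the day 9 library from plate 2. On day 20 the 116 reads of the plate 2_3 library compare with 40.1 reads at the density of silent genes, or 34.6%.

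The leading HEY gene changed between days 4 and 9 and again between days 11 and 20. HEY2 exceeded HEY1 in all 3 libraries of day 0 and of day 4, by 10.1-fold or more. HEY1 exceeded HEY2 in all 3 libraries of day 9, by 1.83- to 2.09-fold, and of day 11, by 1.27- to 2.99-fold. HEY2 exceeded HEY1 again in all 3 libraries of day 20, by 3.27- and 3.83-fold in those from plates 2 and 2_3 and by 1.19-fold in that from plate 6_1. The share of HEY1 in the summed HEY TPM was 4.74% ± 1.95 (SD, n = 3) on day 4, 64.2% ± 0.803 on day 9, 58.8% ± 7.38 on day 11 and 28.5% ± 12.1 on day 20. The summed level of the 3 HEY genes was 22.9 ± 6.47 TPM on day 4, 95.1 ± 38.4 on day 9, 50.7 ± 9.58 on day 11 and 182 ± 72.3 on day 20.

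**Figure D4:**
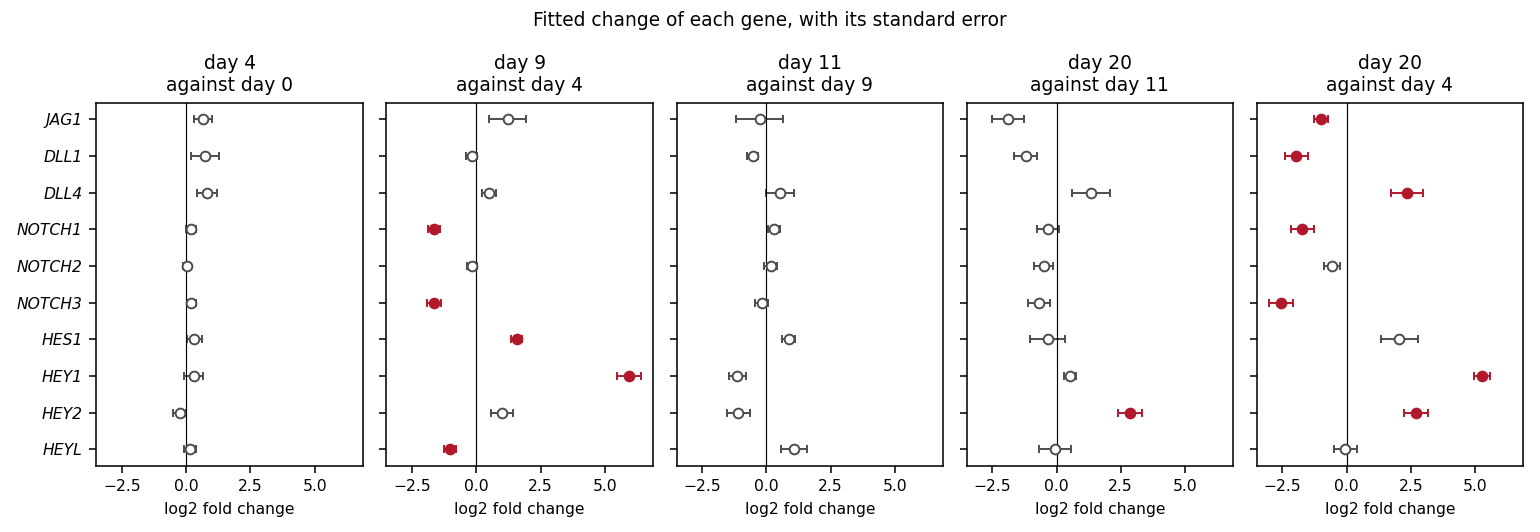
Log2 fold change of each gene with its standard error in 5 comparisons of days, filled red where the edgeR adjusted p was under 0.05. No gene is filled in the panels of day 4 against day 0 and of day 11 against day 9, HEY2 alone is filled for day 20 against day 11, and HEY1 has the largest values, 5.95 and 5.28, in the comparisons of days 9 and 20 with day 4.

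All 10 members passed the filter on low counts in each comparison. The comparisons share libraries and are given side by side. Between days 0 and 4, in pluripotency medium, 0 of the 10 members passed the edgeR test, where 0% of the 20964 genes tested did, and DESeq2 and limma also called 0. At an unadjusted p under 0.05 the count was 0 of 10, where 3.53% of all genes reached it. Their median log2 difference was 0.25, against -0.01 for all genes. The largest differences were 0.81 ± 0.41 for DLL4, 0.74 ± 0.54 for DLL1 and 0.65 ± 0.36 for JAG1 (edgeR adjusted p = 0.885 each).

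The interval from day 4 to day 9 held the exposure to CHIR99021 and, by the labels, that to IWP2 from day 7. Over it 2 of the 10 rose (HES1 and HEY1), where 24.3% of the 21252 genes tested rose. A further 3 fell (NOTCH1, NOTCH3 and HEYL), where 24.7% fell. These counts are near the background. From day 9 to day 11 none of the 10 passed the edgeR test, where 2.39% of 20679 genes did. At an unadjusted p under 0.05 the count was 4, where 17.0% of all genes reached it. DESeq2 called 2 members, where it called 8.10% of all genes, HES1 with 0.86 (adjusted p = 0.0372) and HEY1 with -1.14 (adjusted p = 0.0301), while limma called 0. With the plate as a replicate block edgeR called 4 members, where it called 9.53% of all genes: NOTCH1 with 0.56 (adjusted p = 0.0424), HES1 with 0.61 (adjusted p = 0.0272), HEY2 with -1.05 (adjusted p = 0.00858) and HEYL with 1.33 (adjusted p = 0.0303). In that fit the day 9 library without a plate number and the day 11 library from plate 5 had no same-plate partner. They added nothing to these differences, which rest on the pairs from plates 2 and 6 alone. From day 11 to day 20, 1 of the 10 rose (HEY2), where 1.12% of 21398 genes rose, and 0 fell, where 0.435% fell, although DESeq2 called a fall of JAG1 (-1.90, adjusted p = 0.0257), where it called 2.63% of all genes lower. From day 4 to day 20, 3 of the 10 rose (DLL4, HEY1 and HEY2), where 17.6% of 22024 genes rose, and 4 fell (JAG1, DLL1, NOTCH1 and NOTCH3), where 13.3% fell. Without the day 20 library from plate 2_3, HEY2 no longer passed between days 11 and 20 (adjusted p = 0.0582), and from day 4 to day 20, 4 rose, with HES1 added, and 4 fell, where 24.5% of all genes rose and 23.2% fell.

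Of 52 other genes of the pathway, 51 were tested from day 4 to day 9, and 13 rose, where 24.3% of all genes did, and 12 fell, where 24.7% did, which is near the background. The 51 genes had a median log2 difference of -0.04 against 0.01 for all genes. Among the other ligands, DLK1, a non-canonical ligand that lacks the receptor-binding domain of the others, rose from 8.32 ± 4.35 to 72.0 ± 71.2 TPM (log2 fold change 3.16 ± 0.88, edgeR adjusted p = 0.0218). JAG2 fell from 24.3 ± 5.71 to 6.23 ± 0.678 TPM (-1.95 ± 0.18, edgeR adjusted p = 7.13e-05) and DNER from 16.4 ± 5.68 to 0.854 ± 0.525 TPM (-4.18 ± 0.49, edgeR adjusted p = 0.000382).

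Among the proteases, FURIN, which cleaves the receptor on its way to the surface, rose from 42.5 ± 10.4 to 169 ± 32.0 TPM, and PSEN2, a catalytic subunit of γ-secretase, fell from 23.7 ± 4.31 to 8.76 ± 2.15 TPM (edgeR adjusted p = 0.000263 and 0.000554). In the nuclear complex 2 of 13 genes rose (MAML3 and KDM5A) and 2 fell (RBPJ and TLE1). RBPJ, the DNA-binding factor of the pathway, fell from 93.0 ± 8.36 to 48.4 ± 2.83 TPM (-0.92 ± 0.13, edgeR adjusted p = 0.000693), and TLE1, a co-repressor, from 82.3 ± 7.91 to 30.9 ± 1.55 TPM (-1.39 ± 0.13, edgeR adjusted p = 6.14e-05). MAML3, a co-activator that joins the receptor fragment and RBPJ, rose from 6.16 ± 1.07 to 34.6 ± 1.74 TPM (log2 fold change 2.51 ± 0.15, edgeR adjusted p = 8.89e-06). Its day 9 libraries lay at 35.2, 36.0 and 32.7 TPM, all above the 4.96 to 6.99 TPM of day 4. Of the other HES family genes, HES7 rose (1.95 ± 0.34) and HES2 fell (-2.07 ± 0.34), from day 4 means of 1.26 and 1.66 TPM (edgeR adjusted p = 0.00182 and 0.00132). HES6 also fell, from 29.1 ± 1.645 to 12.1 ± 3.42 TPM (-1.26 ± 0.18, edgeR adjusted p = 0.000655).

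From day 9 to day 11, 0 of 50 other pathway genes tested passed the edgeR test, where 2.39% of all genes did. At an unadjusted p under 0.05 the count was 7, where 17.0% of all genes reached it. From day 11 to day 20, 1 of 51 passed, where 1.12% of all genes rose and 0.435% fell. It was LFNG, the Fringe enzyme that adds sugar to Notch receptors and shifts their choice of ligand. LFNG stood at 66.6, 159 and 51.4 TPM on day 11 and at 4.01, 14.9 and 5.45 TPM on day 20, and it fell by 3.73 ± 0.57 on the log2 scale (edgeR adjusted p = 0.0282). The day 20 libraries lay below all others of the series for LFNG. Without the plate 2_3 library LFNG fell by 4.27 (edgeR adjusted p = 0.0305) and HES2 also passed the test, with 2.94 (edgeR adjusted p = 0.0498), where 1.64% of all genes rose and 0.715% fell.

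From day 4 to day 20, 6 of 51 rose, where 17.6% of all genes did, and 13 fell, where 13.3% did. The largest increases were in DLK1 (log2 fold change 4.79 ± 0.98), NEURL1, a ubiquitin ligase that acts on ligands (3.47 ± 0.45), MAML2 (2.24 ± 0.59) and HES7 (2.21 ± 0.59). The largest decreases were in DNER (-3.68 ± 1.08), LFNG (-3.68 ± 0.41), HES6 (-2.32 ± 0.28) and NRARP, a target that feeds back on the receptor (-2.19 ± 0.36). The edgeR adjusted p of these 8 genes lay between 0.00120 and 0.0382. NRARP and HES6 fell over the same interval in which the targets HEY1 and HEY2 rose. In the plate 2_3 library DNER was at 4.86 TPM, against 0.123 and 0.285 in the other day 20 libraries. Without the plate 2_3 library 12 of the 51 rose and 14 fell, where 24.5% of all genes rose and 23.2% fell. All 8 genes named here passed the edgeR test without it in the same direction, with log2 fold changes of -6.42 for DNER, 5.29 for DLK1 and 1.67 for HES7.

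Among 12310 genes searched, those whose log2 CPM ran most like a member's over the 15 libraries are given by Pearson's r, as a description of points that share day, depth and library. HEY1 ran closest to the cardiac transcription factors HAND2 (r = 0.992) and GATA6 (0.986) and to HHAT (0.985). NOTCH1 and NOTCH3 were close to each other (0.969), with TECR (0.969) and VWA1 (0.964) next to NOTCH1 and MAP1S, SLC6A6 and SLC39A1 next to NOTCH3 (0.980 to 0.981). HEY2 ran closest to ITSN2 (0.953), C1QTNF1 (0.914) and SLC27A6 (0.890), and HES1 to GADD45B (0.962), ZNF805 (0.946) and ZNF550 (0.945).

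The nearest genes were ADAMTS3, GPX7 and CXCR4 for JAG1 (0.811 to 0.847), GPC2, REST and AASDH for DLL1 (0.868 to 0.877) and L3MBTL4, TSPAN32 and UBE2V1 for DLL4 (0.926 to 0.941). They were SLC35F2, PIGC and SLC27A3 for NOTCH2 (0.884 to 0.895) and PTPRT, COL14A1 and PLEKHH2 for HEYL (0.696 to 0.825), the loosest fits of the 10. Without the plate 2_3 library, r was 0.992 for HEY1 and HAND2, 0.937 for HEY2 and ITSN2, and 0.794 to 0.830 for the 3 genes nearest to NOTCH2. Among the members themselves, r was 0.777 between HES1 and HEY1 and -0.831 between NOTCH1 and HEY1.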

How the data were processed

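The 15 bulk RNA-seq libraries were grouped by the day in their labels. Per the labels and methods, paired-end reads from stranded total RNA libraries were aligned to GRCh38 (Ensembl 79) with STAR 2.5.2b and counted per gene with featureCounts 1.5.1. Ribosomal RNA and mitochondrial genes were removed, and the authors deposited unnormalized counts for each gene. The authors also deposited TPM, for which no source used here states the gene lengths. The deposited sample table gives the lane, the RNA integrity number as a score and the uniquely mapped fraction of reads. Whether reads were counted by strand is not given in the sources used here.

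Genes were matched by Ensembl identifier to GENCODE v44, in which 46872 of the 48777 identifiers were found. The count test was the robust quasi-likelihood test of edgeR 4.0.16 (R 4.3.3) after TMM scaling and filterByExpr (min.count 10, min.total.count 15), on the 6 libraries of the 2 days compared and with no covariates. Tests were two-sided, and Benjamini-Hochberg adjustment covered the genes of each fit. Standard errors were obtained as the absolute log2 fold change over the square root of F. Library totals lay between 11990302 and 33469703 counts, and low counts, such as those of DLL4 and HEY1 on days 0 and 4, limit the precision of those levels. Read density on silent genes was the median over autosomal protein-coding genes of at least 2000 bases with at most 2 reads in all over days 0 to 11. The tests were tried on simulated data first.

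Alternatives were DESeq2 1.42.0, upper-quartile factors, no filter on low counts, all 15 libraries in one fit, limma 3.58.1 on log2 TPM after adding 1 or 0.1, a block for the plate or for the sequencing lane, omission of each replicate in turn, and TPM rescaled without the 57-base gene. The members and lists were chosen with earlier results of these data known. Named were all members, up to 4 other pathway genes per direction and comparison with the largest log2 fold change among those past the threshold with at least 1 TPM, and the 3 genes with the highest r for each member among those with at least 10 CPM on 1 day (log2 CPM with a prior count of 2). Markers such as CDH5 and PECAM1, and RBPJ, TLE1, KDM5A, HES2 and HES6 in places, were singled out after their values were seen. The labels call the replicates biological but do not say whether they came from separate cultures started on different days, so that p-values measure the spread between these libraries.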

Additional observations from a re-analysis of the deposited data

How the results depend on the processing

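Of 360 log2 fold changes of members under settings that omit no replicate, 324 kept their direction and their side of the threshold, 12 changed sign, 11 came to pass the threshold and 13 no longer passed. The number of members called moved by over 1.5 times in a few cases. For day 9 against day 4 it was 3 in place of 5 with all 15 libraries in one fit. For day 11 against day 9 it was 2 in place of 0 with DESeq2, 1 without a filter and 4 with the replicate block (plate), in which NOTCH1 (0.56), HES1 (0.61), HEY2 (-1.05) and HEYL (1.33) passed. For day 20 against day 11 it was 2 in place of 1 with DESeq2, 0 with the plate as a replicate block and 0 with the lane as a block. With 1 library left out, the number called was 5 to 7 for day 9 against day 4, 0 to 1 for day 11 against day 9, 0 to 1 for day 20 against day 11, 3 to 8 for day 20 against day 4, and 0 for day 4 against day 0. The lowest, 3, came without the day 4 library from plate 1 or from plate 5, and 4 without that from plate 2. Deviations of same-plate libraries from their day means correlated at 0.102 and 0.301 between days 9 and 11 and at -0.144, 0.0128 and 0.347 between days 11 and 20. The pair at 0.301 also shared sequencing lane 2 and that at -0.144 lane 5, so that plate and lane cannot be told apart there. Days 9 and 11 share 2 plates, and their differences under the plate block rest on these pairs alone. With so few pairs, whether the plates pair the libraries could not be settled, and the cause of the block's effect was not tested.

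Signs changed for members that were not called. For day 11 against day 9, JAG1 was 0.034 and 0.035 with limma on log2 TPM after adding 1 and 0.1, and under the plate block JAG1 was 0.22, NOTCH3 0.089 and DLL4 -0.45. HEYL was 0.087 with upper-quartile factors, 0.14 and 0.16 with limma and 0.077 with the lane block for day 20 against day 11, and 0.048, 0.038 and 0.013 with upper-quartile factors and limma for day 20 against day 4. With 1 library left out, the ranges that crossed zero were -0.075 to 0.087 for NOTCH2, -0.0018 to 0.47 for HES1 and -0.040 to 0.28 for HEYL (day 4 against day 0), -0.37 to 0.015 for NOTCH2 and -0.017 to 1.72 for JAG1 (day 9 against day 4), -0.012 to 0.36 for NOTCH2, -0.39 to 0.14 for NOTCH3, -1.03 to 0.96 for JAG1 and -0.33 to 0.87 for DLL4 (day 11 against day 9), -0.87 to 0.011 for NOTCH1, -1.53 to 0.13 for HES1 and -0.46 to 0.62 for HEYL (day 20 against day 11), and -0.46 to 0.25 for HEYL (day 20 against day 4). Against day 20, the median of all genes moved by -0.15 (day 11) and -0.28 (day 4) without a filter, by 0.11 (day 11) with upper-quartile factors and by 0.13 and 0.14 (day 4) with limma. Rescaled TPM moved 2 day means by more than 1 SD, NOTCH3 on day 0 to 181 TPM and HES1 on day 9 to 91.4 TPM. Depth limits DLL4 and HEY1 on days 0 and 4, which rest on 8 to 37 reads per library.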
